A study of Sus scrofa with 36 samples.

Results

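Gene expression in the thyroid gland was compared between 12 F1 pigs, a cross of Large White (LW) with Creole, and 12 Creole (CR) pigs. These 24 samples are those titled F1 or CR at 24 and 30 °C, 6 per breed and temperature, out of 36 samples that also hold 12 LW pigs. All 36 pigs were castrated males. Each array carried the RNA of 1 gland, and the labels give the pigs no age. The protocol text gives the hot temperature as 32 °C for 5 days, with the 24 °C pigs slaughtered before it, so temperature and time of slaughter cannot be told apart, and the labelled temperatures are used here. The breed of the dam, the parents, the pen and the day of slaughter of each pig are not in the labels. The study used sets of littermates, so p-values measure the spread between these pigs, and a breed cannot be told apart from the few families that stand for it.

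The thyroid is built of follicles, whose cells make thyroglobulin and turn it into thyroid hormone, and of C cells between the follicles, which make calcitonin and related peptides. A crossbred animal carries a chromosome set from each parental breed, so its transcript levels can lie at the level of either parent, between them or outside them. The mitochondrial genome, which encodes 13 subunits of the respiratory chain, is passed on by the dam alone, and the X chromosome of a male also comes from the dam.

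The values are deposited log2 intensities, in which a difference of 1 is a doubling of the signal. Of 46097 probes, 1558 (3.38%) differed between F1 and CR pigs at an adjusted p under 0.05, by limma with temperature as a covariate and Benjamini-Hochberg adjustment over all probes. Of these, 788 (1.71%) were higher and 770 (1.67%) lower in F1. Their median size was 0.34, and 79 reached a size of at least 1. The median difference over all probes was -0.0017. LW and CR pigs differed at 5940 probes (12.9%), and F1 and LW pigs at 923 (2%). These 3 comparisons share pigs, and their values are given side by side without a test between them.

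Judged by the probe with the highest mean signal of each gene, 208 of 11599 genes (1.79%) were higher and 161 (1.39%) lower in F1, 369 (3.18%) in all. Among these 369 genes, 189 had more than 1 probe, and a further probe passed the test in the same direction for 84 of them. The arrays were alike in quality. On each array, 72.8% to 80.3% of its probes read well above background, 0 spots were saturated, and each of the 5 slides held pigs of both breeds. Thyroglobulin (TG) lay between 18.53 and 18.95 in the 24 pigs, near the top of the scale.

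Each pig was also placed between CR, set to 0, and LW, set to 1, over the 500 probes with the strongest difference between those breeds, with the pig itself left out where it was CR or LW. The F1 pigs lay between 0.310 and 0.719 and the CR pigs between -0.0458 and 0.3015. The groups did not overlap, but CR pig 3 at 30 °C, the highest of its breed, lay just under F1 pig 4 at 30 °C, the lowest of its breed. At 24 °C, F1 pigs 1, 2 and 3 lay at 0.719, 0.660 and 0.681, nearer to LW than the 6 F1 pigs at 30 °C, which reached at most 0.557. F1 pigs 4, 5 and 6 at 24 °C lay at 0.352, 0.5435 and 0.527, inside the range of the F1 pigs at 30 °C. The F1 pigs of the 2 temperatures thus overlapped in this measure, and a difference between them was not tested. Pig numbers are names only.

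The genes with the largest higher values in F1 included a group of calcitonin-family peptides. CRSP-2, CRSP-1 and CRSP3 are named calcitonin receptor-stimulating peptides and belong to the calcitonin gene family. They are 3 of 3 measured neighbouring genes in 1 stretch of chromosome 2 (chr2:44135970-44367223, Sscrofa11.1), and all were higher in F1. The stretch begins and ends at genes that passed, so the calls set its bounds, and the neighbouring gene CALCB, described below, did not pass. CRSP-2 (chr2:44243581-44263254) had a lowest, median and highest log2 intensity of 5.06, 8.95 and 11.33 in CR and of 8.71, 11.44 and 12.89 in F1. The groups overlapped, with 7 F1 pigs above all CR pigs and 6 CR pigs below all F1 pigs, and 10 of the 12 CR arrays and all F1 arrays read CRSP-2 well above background, as was the case for CRSP3. The difference was 2.93 ± 0.64 (SE, n = 12 and 12, limma adjusted p = 0.00685), a 7.62-fold difference.

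CRSP3 (chr2:44135970-44145211) lay at 5.10, 7.57 and 9.49 in CR and at 7.34, 9.90 and 10.95 in F1. Its split was the same in count, 7 F1 pigs above all CR pigs and 6 CR pigs below all F1 pigs, and the difference was 2.29 ± 0.48 (limma adjusted p = 0.00484). CRSP-1 (chr2:44315656-44367223), the brightest of the group, lay at 7.89, 11.93 and 14.91 in CR and at 12.02, 14.41 and 16.84 in F1. Its difference of 2.43 ± 0.68 was the least certain (limma adjusted p = 0.0383), and the call was lost in 11 of the 24 fits that left out 1 pig, with an adjusted p of 0.0738 without CR pig 6 at 24 °C. A further probe of CRSP-2, with a difference of 2.67, matches the CRSP3 probe at 52 of 56 bases, so these probes may share signal. The other CRSP3 probe, dim at a mean of 5.48 in CR and 5.74 in F1, differed by 0.26 (limma adjusted p = 0.2696). The remaining CRSP-2 probe, also dim, differed by 0.42 (limma adjusted p = 0.0806). CRSP3 thus passed only on the probe that resembles a CRSP-2 probe.

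LW pigs did not have the high values. CRSP-2 averaged 7.90 in LW against 11.34 in F1 and 8.41 in CR, and F1 was higher than LW by 3.44 (limma adjusted p = 0.00195). CRSP3 averaged 6.90 in LW against 9.68 in F1 and 7.40 in CR, and F1 was higher than LW by 2.79 (limma adjusted p = 0.000941). The same comparison for CRSP-1 gave 2.09 (limma adjusted p = 0.1072).

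The C cell list, made of the calcitonin family and of neuroendocrine markers, was read beside these genes. Of its 15 measured genes, 3 (the CRSP genes) were higher and 0 lower, beside 1.79% and 1.39% of all genes, with a median difference of 0.60 beside 0.0027 over all genes. The CRSP genes, already named by the size of their differences, enter this count, this median and the list's mean level, and no other member passed. Most secretory-granule genes had positive differences that missed the threshold. Chromogranin B (CHGB) differed by 0.73 (limma adjusted p = 0.1848), secretogranin genes SCG2 by 0.66 and SCG3 by 0.57, and the prohormone convertases PCSK1 by 0.69 and PCSK2 by 0.60. CALCB, the gene of calcitonin gene-related peptide beside the CRSP genes (chr2:44043135-44048651), differed by 0.71 (limma adjusted p = 0.2001). Chromogranin A (CHGA) gave -0.06 on its brightest probe and up to 0.97 on its other probes, and SCG5, SYP, SST and CALCR lay between -0.15 and 0.19. The mean level of the list had a range of 9.12 to 11.48 in CR pigs and 10.31 to 12.02 in F1 pigs (15 of 22 listed genes were measured). In whole glands, more C cells and more RNA per C cell cannot be told apart, their part in the CRSP values was not tested, and calcitonin itself (CALCA) was not analysed here.

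**Figure D1:**
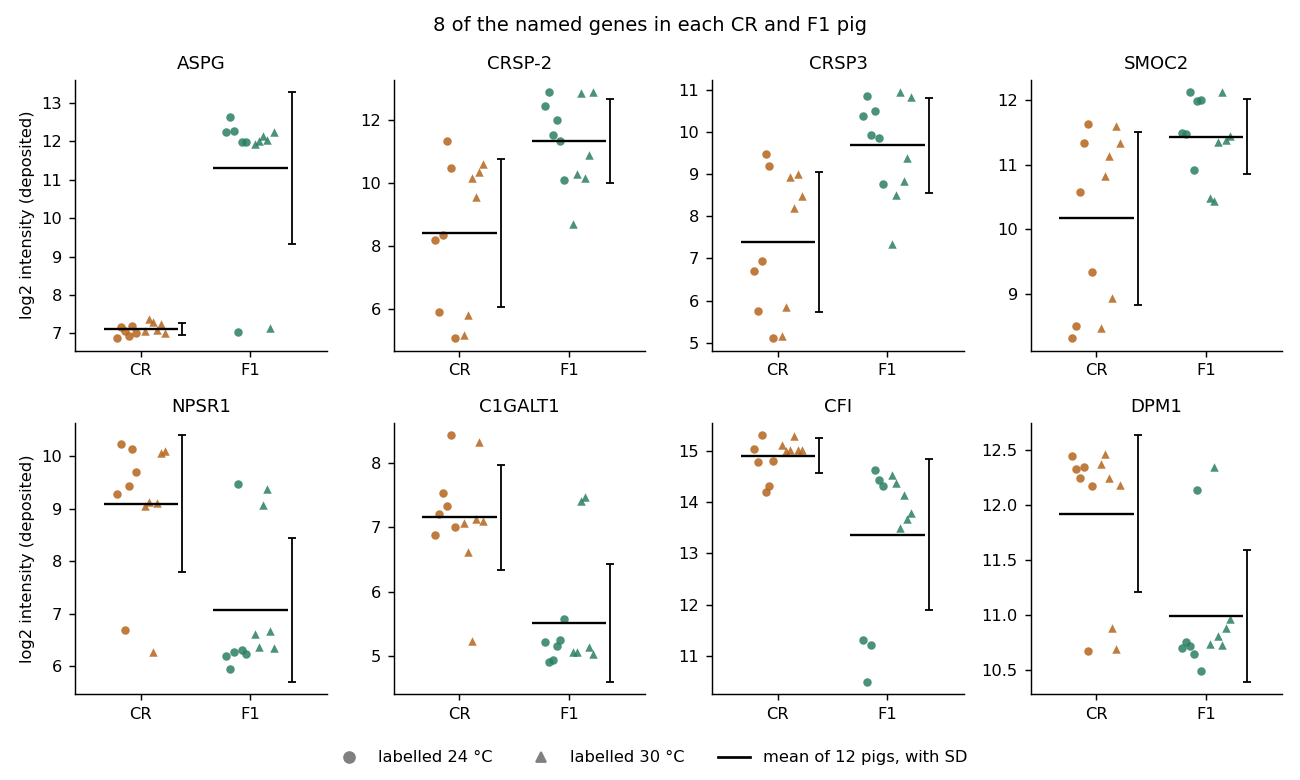
Log2 intensity of 8 of the named genes in each pig, with CR and F1 on the x axis, dots for pigs at 24 °C, triangles for pigs at 30 °C, and a line and bar for the mean and SD of 12 pigs. ASPG lies near 12 in 10 F1 pigs and near 7 in 2 F1 and 12 CR pigs. NPSR1, C1GALT1 and DPM1 also fall into separate levels with a few pigs on the other breed's level. For CFI the split is within F1, where a few pigs lie far below the rest and the other F1 pigs lie nearer to the CR pigs.

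Enzymes held the largest difference of all named genes. ASPG, an asparaginase that splits asparagine into aspartate and ammonia, lies on an unplaced scaffold and has 1 probe. Its log2 intensity was 6.87, 7.08 and 7.38 (lowest, median and highest) in CR and 7.05, 12.02 and 12.62 in F1. All CR pigs were on the low level, 10 F1 pigs were between 11.92 and 12.62, and F1 pig 4 at 24 °C and F1 pig 5 at 30 °C were at 7.05 and 7.14. The difference was 4.19 ± 0.73 (limma adjusted p = 0.000994), and LW pigs, which held both levels from 6.55 to 12.45, averaged 9.64. With values on 2 levels, the size of the mean difference rests on how many pigs were on each.

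AKR1E2 (chr10:65680314-65704701), an aldo-keto reductase, lay at 7.44, 7.92 and 8.16 in CR and at 7.81, 9.14 and 9.37 in F1. All but 1 of the F1 pigs lay above every CR pig. The difference was 0.97 ± 0.16 (limma adjusted p = 0.000403), and F1 was also higher than LW, by 0.89 (limma adjusted p = 0.0011). The kinase TAOK3 (chr14:34322016-34514234), which acts in stress-activated signalling, lay at 10.35, 10.66 and 10.93 in CR and at 10.71, 11.53 and 12.12 in F1, again with 11 F1 pigs above all CR pigs. Its difference was 0.89 ± 0.17 (limma adjusted p = 0.00156), and LW averaged 11.36.

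A pair of glycan enzymes was among the genes with the largest lower values in F1. C1GALT1 (chr9:77509342-77549545), the galactosyltransferase that builds the core 1 O-glycan, lay at 5.23, 7.12 and 8.43 in CR and at 4.90, 5.14 and 7.48 in F1. All but 1 of the CR pigs were above 6.6, and 10 F1 pigs were at 5.58 or below, while F1 pigs 3 and 4 at 30 °C lay inside the CR range. It was read well above background on 11 CR, 3 F1 and 0 LW arrays, so the size of its fall, 1.64 ± 0.28 (limma adjusted p = 0.000804), is not well measured. It fell by 3.70 with processed signal and fell by 1.16 with normexp background correction. DPM1 (chr17:52351852-52377066), the catalytic subunit of dolichol-phosphate mannose synthase, lay at 10.67, 12.24 and 12.47 in CR and at 10.48, 10.74 and 12.35 in F1. Its pigs were on 2 levels, with 9 CR and 2 F1 pigs at 12.13 or above and the other 3 CR and 10 F1 pigs at 10.96 or below. DPM1 fell by 0.93 ± 0.21 (limma adjusted p = 0.0105), and the fall was read by 2 of its 5 probes, while the other 3 differed by -0.03 to -0.02.

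Some receptors and signalling peptides were lower and others higher in F1. NPSR1 (chr18:38942499-39212791), the receptor of neuropeptide S, lay at 6.27, 9.36 and 10.23 in CR and at 5.94, 6.35 and 9.47 in F1. It was low in CR pig 3 at 24 °C and CR pig 3 at 30 °C, and high in F1 pig 4 at 24 °C and F1 pigs 3 and 4 at 30 °C, so the groups overlapped in both directions. The fall was 2.03 ± 0.43 (limma adjusted p = 0.00595) and was seen on both of its probes, and the LW mean was 6.17, on the low level. PDYN (chr17:33505075-33521534), the precursor of the dynorphin opioids, lay at 6.03, 7.84 and 9.64 in CR and at 5.77, 6.19 and 8.27 in F1, with the spread mostly on the CR side. It fell by 1.52 ± 0.35 (limma adjusted p = 0.00975) on its brightest probe, and all 4 of its probes were lower.

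NOTCH1, the receptor of cell-to-cell signalling, lay at 8.69, 9.44 and 10.20 in CR and at 6.74, 8.68 and 9.64 in F1, a fall of 1.07 ± 0.26 (limma adjusted p = 0.0183). GPR83 (chr9:26549230-26560473), a G protein-coupled receptor, went the other way, with 5.76, 7.75 and 8.57 in CR and 7.74, 8.61 and 8.83 in F1. Its difference of 0.90 ± 0.24 (limma adjusted p = 0.0289) was 1.50 at 24 °C and 0.30 at 30 °C, and the call was lost without F1 pig 1 at 24 °C (adjusted p = 0.0513). FAM3D (chr13:40375536-40456057), a secreted cytokine-like protein, fell by 0.98 ± 0.22 (limma adjusted p = 0.00889), with 9 CR pigs above all F1 pigs.

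Genes of defence stood on both sides. Complement factor I (CFI, chr8:112430824-112470844), the protease that inactivates C3b and C4b, lay at 14.20, 15.02 and 15.30 in CR and at 10.50, 13.96 and 14.62 in F1. The low tail was F1 pigs 1, 2 and 3 at 24 °C, at 11.32 or below, while the other 9 F1 pigs were at 13.49 or above and CR kept to a narrow range. CFI fell by 1.54 ± 0.38 (limma adjusted p = 0.0192), on both of its probes. The same 3 F1 pigs had the lowest values of NOTCH1, at 7.25 or below.

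XAF1 (chr12:50644783-50659807), an interferon-inducible protein that promotes cell death, lay at 7.51, 8.49 and 9.60 in CR and at 8.70, 9.61 and 10.63 in F1, a difference of 1.098 ± 0.25 (limma adjusted p = 0.00954). The other XAF1 probe differed by 0.68 and missed the threshold (limma adjusted p = 0.0598). MIC-2, a relative of the major histocompatibility complex (MHC) class I chains, lay at 7.79, 8.22 and 8.49 in CR and at 8.13, 9.44 and 9.70 in F1. Of the F1 pigs, 8 lay above all CR pigs and the other 4 inside the CR range, among them F1 pigs 1, 2 and 3 at 24 °C. MIC-2 was higher in F1 by 0.92 ± 0.17 than in CR (limma adjusted p = 0.00143) and by 0.92 than in LW (limma adjusted p = 0.00163).

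CAPSL and SMOC2, which encode calcium-binding proteins, were higher in F1. CAPSL (chr16:21349279-21356670), related to calcyphosine, lay at 8.09, 9.53 and 10.69 in CR and at 10.04, 10.69 and 11.55 in F1, a difference of 1.27 ± 0.28 (limma adjusted p = 0.00732). SMOC2 (chr1:1193163-1332739), a secreted matrix protein, lay at 8.31, 10.71 and 11.63 in CR and at 10.45, 11.46 and 12.13 in F1. Its difference was 1.27 ± 0.34 (limma adjusted p = 0.0311), and the call was lost in 8 of the 24 fits that left out 1 pig, with an adjusted p of 0.0606 without CR pig 2 at 24 °C.

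Among the remaining named genes, CCDC17 (chr6:165768569-165772763), a coiled-coil protein, lay at 6.10, 6.40 and 7.24 in CR and at 6.64, 7.51 and 8.23 in F1, and its difference of 0.97 ± 0.14 (limma adjusted p = 0.00022) passed the test at 24 °C (0.88) and at 30 °C (1.06). USF1 (chr4:89395133-89401048), a helix-loop-helix transcription factor, lay at 8.77, 9.81 and 10.21 in CR and at 8.02, 8.50 and 9.92 in F1. It fell by 0.99 ± 0.18 (limma adjusted p = 0.00129), and all 5 of its probes were lower. The cilium gene TMEM237 fell by 1.17 ± 0.26, VMO1 by 1.05 ± 0.26, the transporter gene SLC46A2 by 1.02 ± 0.25 and the myosin light chain gene MYL6B by 0.88 ± 0.19, with limma adjusted p from 0.00736 to 0.0190. None of the 24 genes named by size separated the 12 F1 from the 12 CR pigs without overlap, and 18 of the 24 had the same sign on all 5 slides.

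**Figure D2:**
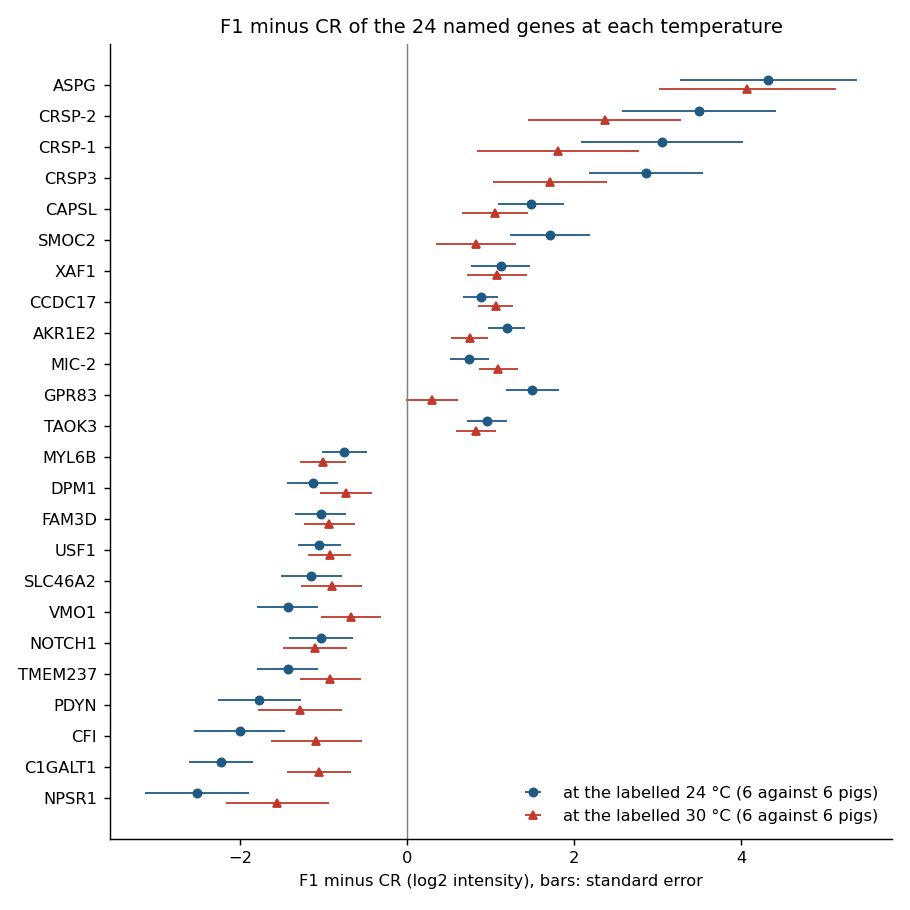
F1 minus CR difference in log2 intensity (x axis) of the 24 genes named by size (y axis), with dots for the 6 against 6 pigs at 24 °C, triangles for those at 30 °C, and bars for the standard error. All 24 genes have the same sign at both temperatures, as the rule for naming them required, and GPR83 lies at 1.50 and 0.30.

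Groups without overlap were found at 13 probes (0.0282%), 7 (0.0152%) with all F1 pigs above and 6 (0.013%) with all F1 pigs below the CR pigs. C1D (chr3:74133665-74153756), a nuclear protein of the RNA exosome, lay at 9.49, 9.60 and 9.87 in CR and at 10.12, 10.32 and 10.75 in F1. Its difference was 0.75 ± 0.06 (limma adjusted p = 3.02e-10), and LW averaged 10.67. C1D closes a stretch (chr3:73157744-74153756) in which 4 of 10 measured genes were higher, the others being ANTXR1, GKN1 and GKN2, at 0.23, 0.30 and 0.80. USP30 (chr14:41765220-41818937), a deubiquitinase of the outer mitochondrial membrane, fell by 0.24 ± 0.04 (limma adjusted p = 0.000944). A probe of PRPS2 (chrX:9505034-9531044), a phosphoribosyl pyrophosphate synthetase, fell by 0.53, while the brightest probe of the same gene was higher by 0.33, so the probes of PRPS2 disagree. Of the other probes, 4 belong to mitochondrial genes, described further on, and 6 have no gene name.

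The unnamed probes held the strongest separations, and the first 30 bases of the highest and the lowest are printed since only the sequence identifies them. They were picked after their values were seen.
Probe higher in F1: aattaaagcactttattgcacttggcattc
Probe lower in F1: atggcaaaatgattaccacaatacggttag
The first lay at 7.76, 7.91 and 8.27 in CR and at 8.59, 8.82 and 9.37 in F1, a difference of 0.95 ± 0.07 (limma adjusted p = 3.71e-11), with LW at 9.38. The second lay at 6.37, 6.54 and 6.82 in CR and at 5.53, 5.65 and 5.83 in F1, a fall of 0.90 ± 0.06 (limma adjusted p = 2.99e-12), with LW at 5.70. In each, the pigs of a breed spanned less than the distance between the breed means.

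The probes were not spread evenly over the genome. On the autosomes, 648 of 21826 placed probes (2.97%) passed the test, from 1.62% on chromosome 13 to 5.28% on chromosome 17. On the X chromosome the count was 43 of 799 (5.38%), beside 13.6% for LW against CR and 0.501% for F1 against LW. On the mitochondrial genome it was 59 of 128 (46.1%), beside 5.47% for LW against CR and 39.1% for F1 against LW. Of those 59 probes, 57 were higher and 2 lower in F1. Neighbouring genes that passed in the same direction, each within 1 Mb of the next, formed 8 stretches of at least 3 genes. Each stretch begins and ends at a gene that passed, so its share of measured genes depends on the calls that set its bounds. Over all genes, 1.79% were higher and 1.39% lower. Beside the CRSP genes and the C1D stretch, ZNF76, DEF6 and PPARD (chr7:31161130-31295221), the last a lipid-sensing nuclear receptor, were 3 of 3 measured genes, and they fell by 0.48, 0.25 and 0.36. The other 5 stretches, on chromosomes 2, 4, 12, 13 and 15, held 3 of 13 to 3 of 51 measured genes each. Probes of a chromosome, and above all those of the mitochondrial genome, are not independent of each other.

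**Figure D3:**
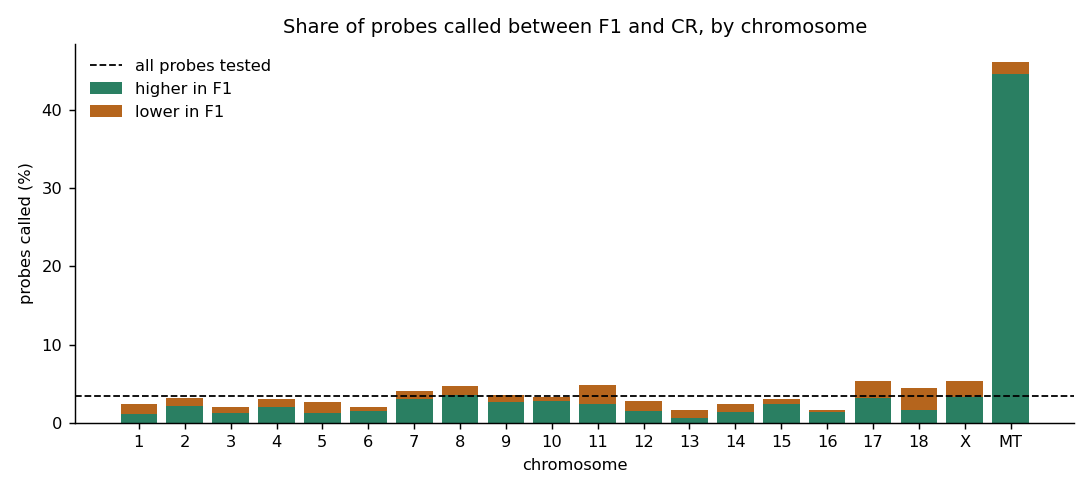
Percentage of placed probes (y axis) that differed between F1 and CR on each chromosome (x axis), with green for higher and brown for lower in F1 and a dashed line at the 3.38% of all probes. The mitochondrial genome (MT) stands at 46.1%, and the Y chromosome, with 0 of 4 probes, is not drawn.

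The mitochondrially encoded subunits were described probe by probe. Over the 128 probes of the 13 genes, the median difference was 0.19, and 111 lay above 0. On the brightest probe of each gene, 7 of 13 were higher and 0 lower. They were ND3, ND5 and ND6 of complex I, CYTB of complex III, COX3 of complex IV, and ATP6 and ATP8 of the ATP synthase. ND6 lay at 14.84, 15.26 and 15.78 in CR and at 15.58, 15.81 and 15.95 in F1, a difference of 0.53 ± 0.10 (limma adjusted p = 0.00143). ND3 lay at 16.26, 16.42 and 16.84 in CR and at 16.78, 16.95 and 17.12 in F1, a difference of 0.46 ± 0.10 (limma adjusted p = 0.00671). On these probes of ND6 and ND3, 10 of the 12 CR pigs lay below every F1 pig. The other ND6 probe, dimmer with a mean of 7.99, differed by -0.34 and also passed, so the probes of ND6 disagree.

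The other 5 differed by less. ND5 differed by 0.37, ATP8 by 0.36, CYTB by 0.34, COX3 by 0.27 and ATP6 by 0.18, with limma adjusted p from 0.00146 to 0.0163. ND1, ND2, ND4, ND4L, COX1 and COX2 did not pass on their brightest probes, with differences between -0.04 and 0.19. On other probes, a COX2 probe, a CYTB probe and a pair of ATP6 probes separated the breeds without overlap. The COX2 probe lay at 15.00, 15.26 and 15.45 in CR and at 15.67, 15.72 and 15.85 in F1, a difference of 0.49 ± 0.07 (limma adjusted p = 5.04e-05), and the CYTB probe differed by 0.59 and the ATP6 probes by 0.49 and 0.44. LW averaged 15.46 on this COX2 probe, and F1 was higher than LW by 0.27 (limma adjusted p = 0.0209).

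Nuclear genes of oxidative phosphorylation were read beside them. Of 50 measured, 0 were higher and 1 lower, beside 1.79% and 1.39% of all genes, with a median of -0.05. NDUFB11 fell by 0.26 and lost the call in 13 of the 24 fits that left out 1 pig (highest adjusted p 0.0673, without F1 pig 5 at 24 °C). Its other probe, nearly as bright, differed by -0.06 (limma adjusted p = 0.6110). NDUFB8 was lower on 1 of 7 probes, not the brightest.

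Probes of the same gene gave very different sizes. COX2 probes spanned 0.04 to 2.95, ND1 probes -0.58 to 1.81, COX1 probes -0.13 to 2.19 and ND2 probes 0.15 to 2.05. The pair with the widest gap among overlapping probes is a COX2 pair that shares 48 bases and differs at 1, written A33T. Here the first probe has A at position 33, counted from its 5′ end, and the overlapping probe has T. A second pair, of ND1, shares 44 bases and differs at 1, written G1C in the same way. These 60-base probes, given in the scanner files, are shown because they read almost the same stretch, with the differing base in capitals, and were picked after their values were seen.
COX2, first probe: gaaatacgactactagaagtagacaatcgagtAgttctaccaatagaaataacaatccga
COX2, overlapping probe: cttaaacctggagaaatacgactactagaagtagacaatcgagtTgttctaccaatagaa
ND1, first probe: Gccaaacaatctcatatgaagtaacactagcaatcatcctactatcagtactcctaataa
ND1, overlapping probe: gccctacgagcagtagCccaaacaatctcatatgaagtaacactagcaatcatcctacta
The first COX2 probe lay at 9.49, 13.86 and 16.27 in CR and at 16.08, 16.22 and 16.42 in F1, a difference of 2.95 ± 0.54 (limma adjusted p = 0.00155). The F1 pigs were alike, and the CR pigs fell on several levels, lowest in CR pigs 3 and 4 at 24 °C. The overlapping probe differed by 0.51 ± 0.08 (limma adjusted p = 0.00022). For ND1, the first probe differed by 1.81 and the overlapping probe by 0.77.

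Among the 17 pairs of mitochondrial probes that overlap by at least 40 bases, the probes of the 4 pairs with identical overlaps differed by at most 0.06, with a median of 0.05. Those of the 13 pairs with 1 to 3 differing bases differed by 0.004 to 2.44, with a median of 0.13. Some pairs share a probe, and the probes of a pair also differ in the bases outside their overlap. The part of the probe sequence in these values was not tested. Sequences of the pigs themselves were not analysed here.

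**Figure D4:**
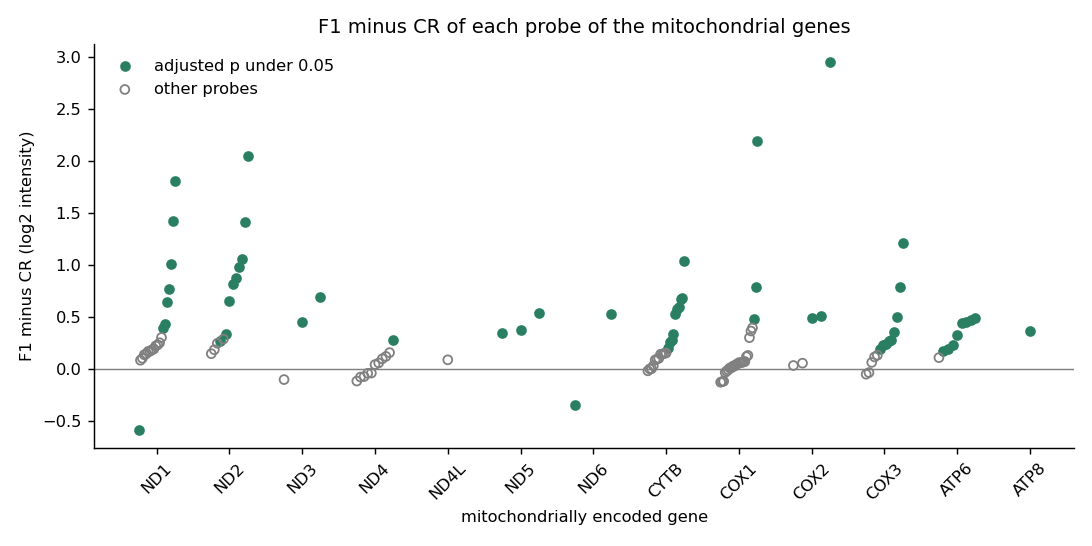
F1 minus CR difference in log2 intensity (y axis) of each of the 128 probes of the 13 mitochondrially encoded genes (x axis), with filled points for an adjusted p under 0.05. COX2 reaches 2.95, most probes lie between 0 and 0.7, and a probe of ND1 and a probe of ND6 are filled below 0.

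The CR pigs were not alike in these probes. CR pig 5 at 24 °C and CR pig 5 at 30 °C lay inside the range of the F1 pigs at 113 and 112 of the 128 probes, and the other 10 CR pigs at 45 to 67. Among LW pigs the count ran from 22 to 126, highest in LW pig 1 at 30 °C. The 12 F1 pigs set that range, so no count is given for them.

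**Figure D5:**
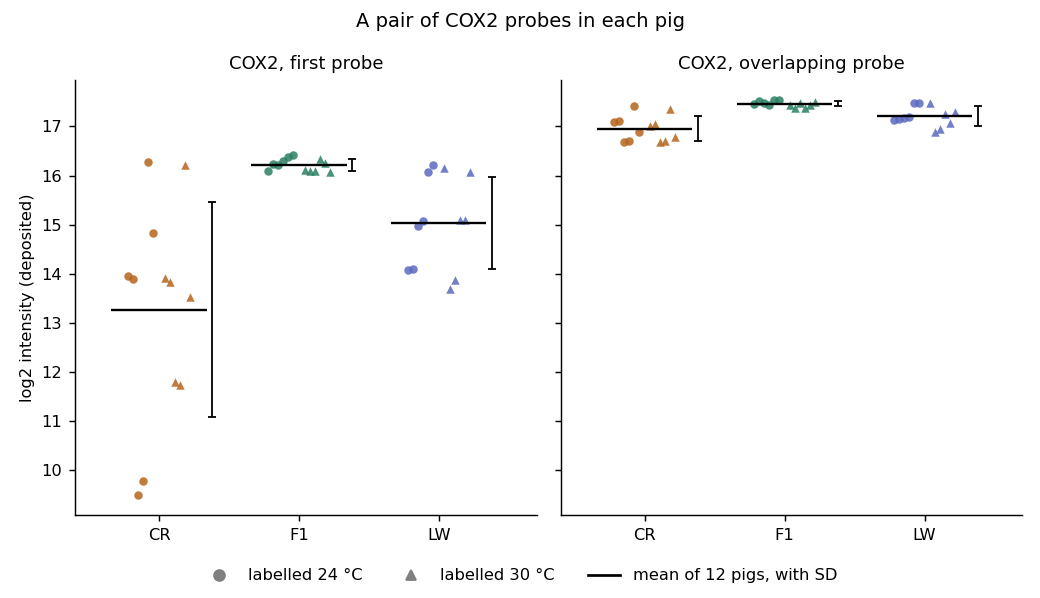
Log2 intensity (y axis) of the pair of overlapping COX2 probes in each CR, F1 and LW pig (x axis), with dots for 24 °C, triangles for 30 °C, and a line and bar for the mean and SD of 12 pigs. On the first probe the CR pigs run from 9.49 to 16.27 and the F1 pigs from 16.08 to 16.42, and on the overlapping probe all pigs lie above 16.6.

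On their brightest probes, the genes of the thyroid's own function did not pass the test in this comparison. Of 19 measured genes of thyroid hormone synthesis and transport, 0 were higher and 0 lower, with a median of -0.02. Over all 84 probes of these genes, 4 passed and were higher, all 4 of them among the 17 probes of GNAS, which encodes the stimulatory G protein subunit of thyrotropin signalling. Of 12 follicular identity genes, again 0 passed in either direction. TG differed by 0.05 ± 0.05, the iodide transporter SLC5A5 by -0.07 ± 0.25, the thyrotropin receptor TSHR by -0.24 ± 0.10 and the oxidase DUOX2 by -0.00096 ± 0.08. The transcription factors PAX8, NKX2-1 and FOXE1 differed by 0.07, 0.07 and 0.10. The limma adjusted p of these 7 genes ran from 0.1786 to 0.9965, which does not show that the breeds were equal, and SLC26A4 and DIO1 were not analysed here.

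In the stress and immune lists, the genes that passed are to be read beside 3.18% of all genes, and the medians beside 0.0027 over all genes. Genes of a list are not independent of each other, and the counts above 0 were not tested. Of 35 interferon-stimulated genes, XAF1 alone was higher and 0 were lower, with 29 above 0 and a median of 0.20. Of 14 glucocorticoid-responsive genes, glutamine synthetase (GLUL) alone was higher, by 0.39 ± 0.10, and all 14 lay above 0 with a median of 0.24. The breeds overlapped in the mean level of both lists. That of the interferon list ran from 9.68 to 10.46 in CR pigs and from 9.79 to 10.93 in F1 pigs. For the glucocorticoid list it ran from 10.39 to 11.38 and from 10.43 to 11.80. Among 42 heat shock chaperones, HSPA4L was higher by 0.22. Probes other than the brightest were higher for HSPA13 (1 of 3), HSP90AA1 (1 of 9) and FKBP4 (2 of 3). Among 20 genes of the unfolded protein response, the co-chaperone DNAJC3 was lower by 0.38, and the list's median was -0.14. A probe other than the brightest was lower for HSP90B1 (1 of 11) and SDF2L1 (1 of 5). Of 62 cell cycle genes, CENPM of the kinetochore fell by 0.29 and the replication factor CDC45 by 0.27, with 0 higher, 16 above 0 and a median of -0.11. The mean level of this list also overlapped, from 7.79 to 8.88 in CR pigs and from 7.91 to 8.99 in F1 pigs. The CENPM call was lost in 14 of the 24 fits that left out 1 pig, with an adjusted p of up to 0.0687 (without F1 pig 5 at 24 °C). The other CENPM probes differed by -0.09 to 0.06 and did not pass. CDKN3 was lower on 1 of its 8 probes, not the brightest.

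In 20 genes of MHC class I and antigen processing, SLA-6, a class Ib molecule, fell by 0.60 ± 0.13 against CR (limma adjusted p = 0.00738) and was also lower than in LW, by 0.84 (limma adjusted p = 0.000368). Its difference was -0.27 at 24 °C and -0.92 at 30 °C. Among 52 chemokines, interleukins and receptors, IL15 was higher by 0.42, a call lost in 14 of the 24 fits that left out 1 pig (highest adjusted p 0.0902, without F1 pig 5 at 24 °C). Of 22 immediate early genes, 18 antimicrobial genes and 11 MHC class II genes, 0 passed in either direction on the brightest probe. On other probes, the class I gene SLA-3 was higher on 4 of 8 and the class II gene SLA-DQA1 on 1 of 9. The growth factor lists, of 22 insulin-like growth factor and growth hormone genes and 23 imprinted genes, also held 0 on the brightest probe. On other probes, the imprinted genes GNAS and GRB10 were higher on 4 of 17 and 1 of 7.

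Metabolic enzymes gave a mixed picture. Of 39 cytochrome P450, glutathione transferase and glucuronosyltransferase genes, 3 were lower and 1 higher, beside 1.39% and 1.79% of all genes. CYP2D25, which can hydroxylate vitamin D, fell by 0.67 ± 0.17, and the glutathione transferases GSTA4 and GSTZ1 fell by 0.59 and 0.32, while GSTK1 was higher by 0.16. The other probes of CYP2D25 (-0.45 and -0.43) and of GSTZ1 (-0.16 and -0.14) did not pass. The GSTK1 call was lost under 5 of 12 alternatives (highest adjusted p 0.1619) and in 6 of the 24 fits that left out 1 pig (highest 0.0647, without F1 pig 2 at 30 °C), and the CYP2D25 call in 1 of these fits (0.0526, without F1 pig 5 at 24 °C). Among 36 antioxidant enzymes the peroxiredoxins parted, with PRDX5 lower by 0.40 ± 0.08 on all 4 of its probes and PRDX6 higher by 0.40 ± 0.09. HMOX1 was lower on 1 of 5 probes and SELENOF on 1 of 6, not the brightest. INSIG2, which holds back sterol synthesis, was the only one of 29 sterol and lipid genes to pass and was higher by 0.60 ± 0.12 (limma adjusted p = 0.00396).

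Pigment genes were read because coat colour separates these breeds. KIT (chr8:41402334-41492306), the receptor of stem cell factor, lay at 11.09, 11.70 and 12.31 in CR and at 11.66, 12.44 and 13.01 in F1. It was higher by 0.60 ± 0.16 (limma adjusted p = 0.0327), lost the call in 11 of the 24 fits that left out 1 pig (an adjusted p of 0.0668 without F1 pig 2 at 30 °C), and averaged 13.54 in LW. DCT (chr11:63584865-63647486), a melanin synthesis enzyme, lay at 7.15, 7.69 and 8.72 in CR and at 6.42, 7.02 and 7.63 in F1. DCT fell by 0.79 ± 0.14 (limma adjusted p = 0.00101) and was lower than in LW by 1.07 (limma adjusted p = 3.92e-05). The fall against CR was read by its brighter probes, while the remaining probes differed by -0.04 and 0.01. The other 11 measured pigment genes did not pass.

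Some genes that separate LW from CR did not separate F1 from CR. The defensin gene DEFB1 averaged 7.69 in CR, 7.85 in F1 and 10.71 in LW, and insulin-like growth factor 2 (IGF2) averaged 12.97, 12.99 and 13.81. F1 differed from CR by 0.16 and 0.03 in these genes, with limma adjusted p of 0.8243 and 0.9634. TMEM176B, a membrane protein of immune cells, lay at 6.53, 11.71 and 11.92 in CR and at 7.14, 7.46 and 11.79 in F1. Its values were on 2 levels, with 8 CR and 3 F1 pigs at 11.63 or above, and the difference of -1.76 ± 0.68 missed the threshold (limma adjusted p = 0.1560).

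Marker lists of other cell types were measured in the same pigs. Among 13 genes of thymocytes and T cells, 7 of B and plasma cells, 16 of myeloid cells, 24 of fibroblasts, 13 of adipocytes, 20 of skeletal muscle and 4 of the parathyroid, 0 were higher and 0 lower on the brightest probe, though 2 probes of the fibroblast gene LUM were lower and 2 of the muscle gene DES higher. The endothelial receptor KDR was higher by 0.51, alone among 14 endothelial genes, and the erythroid gene HEMGN was lower by 0.25, alone among 9 erythroid genes. The other probes of KDR differed by 0.14 and -0.03 and the other probe of HEMGN by 0.15, and none of these passed. The HEMGN call was lost in 12 of the 24 fits that left out 1 pig, with an adjusted p of up to 0.0742 (without F1 pig 6 at 24 °C). The mean level of the parathyroid list ran from 6.60 to 7.17 in CR and from 6.84 to 7.96 in F1, and that of the fibroblast list from 10.73 to 12.12 and from 10.82 to 11.66.

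The breed difference was also taken at each temperature. At 24 °C, 841 probes (1.82%) passed, 389 higher (0.844%) and 452 lower (0.981%) in F1. At 30 °C, 39 probes (0.0846%) passed, 21 higher (0.0456%) and 18 lower (0.039%). The test of whether the difference changed with temperature called 0 probes, with 2631 (5.71%) at an unadjusted p under 0.05, so a larger difference at 24 °C than at 30 °C was not shown for any probe. All 1558 probes of the joint comparison had the same sign at both temperatures, with a median size of 0.39 at 24 °C and 0.30 at 30 °C. The joint difference is in essence the mean over both temperatures of the same pigs, so the shared sign largely follows from how these probes were picked. The count at 24 °C rests on few pigs, since it fell to 228 without F1 pig 6, 282 without F1 pig 5, 297 without CR pig 6, 298 without CR pig 2, 347 without F1 pig 1, 437 without F1 pig 3, 453 without CR pig 1 and 548 without CR pig 3. At 30 °C it moved to 75 without CR pig 5. The count over both temperatures lay between 1099 and 1771 in the 24 fits that left out 1 pig.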

How the data were processed

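Total RNA of each gland was labelled with Cy3 and hybridized to a 1-colour Agilent porcine array. The authors read the scans with Agilent Feature Extraction 10.10.1.1, imported median pixel intensity with limma and scaled it by quantile normalization. The deposited value table holds log2 values of 46097 of the 60305 probes, and the deposited scanner files hold the intensity of each spot. Values remade from the intensities differed from the deposited log2 values by a median of 0.0056. Column medians lay between 8.384 and 8.387, and 63 values were missing.

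Breed differences were tested with lmFit and eBayes of limma 3.58.1, run in R 4.3.3, on the deposited log2 values of all 36 arrays, with breed and temperature as terms, or with 6 group means for the values within a temperature and their interaction, and Benjamini-Hochberg adjustment over all probes. The authors' random terms (pen, day of slaughter, father, mother) are not in the labels and were left out. Pigs were numbered in the order of their records, as names only. The number of arrays limits the precision, and simulated differences of 0.5 and 1 between F1 and CR were recovered for 84% and 98% of changed probes, among 46097 tested.

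A total of 24271 probes had a gene name, from the scanner files and a RefSeq list of Sscrofa11.1, which gave the positions. Probes without a name stayed in all tests. The probe with the highest mean stands for a gene. Named are the 12 genes with the largest difference in each direction among those that passed the test, were well above background on at least 5 of 6 arrays of a group and had the same sign at both temperatures, genes set in advance such as those of thyroid function and the mitochondrial genome, and up to 4 genes of each of 30 lists. Genes and lists were chosen with earlier results of these data known. Other genes named, such as those without overlap, and the printed sequences were chosen after their values were seen. Figures were drawn with matplotlib 3.10.9 in Python 3.11.15. The alternatives tried were other scalings, background corrections and filters, slide and array position as blocks, the F1 and CR arrays alone, and leaving out pigs.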

Additional observations from a re-analysis of the deposited data

Results flagged for a closer look

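In groups of 6 pigs, a pig was marked where it lay apart from the next pig by more than the 95% critical value of Dixon's test, which divides that gap by the group's whole range. This was the case for 25 of 196 groups of 49 genes, and chance alone marks about 1 in 20 groups. Among the enzymes and kinases, ASPG stood at 7.05 in an F1 pig at 24 °C and at 7.14 in an F1 pig at 30 °C, AKR1E2 at 8.19 in an F1 pig at 24 °C, and DPM1 at 10.67 in a CR pig at 24 °C, 12.13 in an F1 pig at 24 °C and 12.35 in an F1 pig at 30 °C. Among receptors and peptides, NPSR1 stood at 6.68 in a CR pig at 24 °C, 6.27 in a CR pig at 30 °C and 9.47 in an F1 pig at 24 °C, PDYN at 8.27 in an F1 pig at 30 °C, GPR83 at 8.57 and TSHR at 8.93 in a CR pig at 30 °C each.

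Other nuclear genes with such a pig were MIC-2 at 8.26 in an F1 pig at 30 °C, TMEM237 at 10.83, USF1 at 9.75 and TMEM176B at 11.78 in an F1 pig at 24 °C each, and IGF2 at 14.29 in an F1 pig at 30 °C. Mitochondrial genes with such a pig were ND1 at 17.23, ND4 at 16.45, CYTB at 17.97, COX3 at 18.80 and ATP6 at 18.34 in an F1 pig at 30 °C each, ND5 at 15.89 in an F1 pig at 24 °C, and ND3 at 16.84 and ND6 at 15.78 in a CR pig at 30 °C each.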

How the results depend on the processing

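The count of 1558 probes lay between 1172 with array position as a block and 2143 with slide as a block over the alternatives other than leaving out a pig, and between 1099 and 1771 when 1 pig was left out. At 24 °C, 841 probes became 2234 with slide as a fixed block, 1333 with slide as a random block and 385 with position as a block, and 228 to 917 without 1 pig. The share higher in F1 there, 46.3%, became 34.7% with median intensity and 35.8% with processed signal scaled to the 75th percentile. At 30 °C, 39 became 85, 65 and 18 under the same blocks and 27 to 75 without 1 pig, and the share higher, 53.8%, became 75% with the F1 and CR arrays alone (56 probes) and 38.6% without CR pig 3 at 30 °C and F1 pig 4 at 24 °C (44 probes). Without these same pigs, the probes without overlap rose from 13 to 23, and without 1 pig they numbered 13 to 22, with 22 without F1 pig 4 and 21 without CR pig 3, each at 30 °C. The interaction called 0 probes under every alternative run. The cause of these moves was not tested beyond the smaller number of pigs. Of the 24 genes named by size, the call was lost for CRSP-1, SMOC2 and GPR83 with the F1 and CR arrays alone, for CRSP-1 and SMOC2 with position as a block, and for GPR83 with processed signal or without the same 2 pigs, and none changed sign. Of the other named genes, the calls lost under alternatives other than leaving out 1 pig were those of GSTK1 (5 of 12), IL15 (4), CENPM and HEMGN (3 each), NDUFB11, KIT and ATP6 (2 each) and CYP2D25 (1). Sign changes were seen only in genes near 0. DUOX2 became 0.0037 with median intensity scaled to the 75th percentile, 0.0104 with normexp, 0.0267 without the 2 pigs and COX1 0.0044 with position as a block. Without 1 pig, the ranges were -0.0384 to 0.0333 for DUOX2, -0.0226 to 0.0106 for COX1, -0.1893 to 0.0307 for SLC5A5, -0.3872 to 0.0148 for SST, -0.0932 to 0.0780 for IGF2 and -0.0107 to 0.2297 for CALCR. Mitochondrial probes that passed numbered 55 to 69 under all alternatives. No paired analysis was possible because the labels give the pigs no shared replicate numbers.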
